A study of Mus musculus with 6 samples.

Results

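Knockout number 2 was compared with knockout number 1 within each of 2 culture media, using 4 of the 6 RNA-seq libraries of a study of Hnrnpf loss in mouse embryonic stem cells (ESCs). The cells were E14 ESCs, an established line, either wild type or Hnrnpf knockout. They were kept in serum medium with leukemia inhibitory factor (LIF), the cytokine that sustains mouse ESC self-renewal, or were taken 4 days after LIF removal. Each medium held 1 wild type library, 1 library of knockout number 1 and 1 library of knockout number 2. The labels do not say how the knockout was made, whether the clone behind a number is shared by both media, or whether libraries came from separate cultures. If a number marks a clone, each number stands for 1 clone, and a difference between clones, cultures and library preparations cannot be told apart.

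Values were deposited as FPKM, fragments scaled to transcript length and library total, for 25170 gene symbols. The test covered 11849 genes, those whose FPKM averaged at least 1 across the 4 knockout libraries. Just inside that bound lay Ccdc65 at 1.0006, and just outside it Slfn10-ps at 0.99988. A gene low in 1 number could enter through high values in the other alone, so the bound itself favours differences among weakly expressed genes. A difference is always number 2 minus number 1 on the log2(FPKM + 1) scale, which understates the change of genes with low values. Of the tested genes, 7201 (60.8%) differed the same way in both media, 3711 higher and 3490 lower in number 2. These are the genes described here, and sharing a sign in both media is how they were chosen, not a finding.

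ESC sublines are often founded from single cells, and sister lines can drift apart in chromosome number, in DNA methylation and in the balance between self-renewing and differentiating cells. Gains of whole chromosomes, chromosome 8 among them, are a known change of mouse ESCs in culture. Imprinted genes, which are expressed from only the maternal or the paternal copy, and the X-linked Rhox homeobox cluster, whose promoters are silenced by DNA methylation, are well known for variable expression between ESC lines. The product of Hnrnpf is a member of the hnRNP H/F family of RNA-binding proteins, which recognise runs of guanine and regulate splicing and polyadenylation.

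Hnrnpf itself (chromosome 6, 117900324 to 117925622, GRCm38) was the first gene examined, since it checks the labels. With LIF it was at 342 FPKM in wild type, 98.7 in number 1 and 37.1 in number 2. After LIF removal it was at 335, 95.2 and 27.8. All 4 knockout libraries lay below both wild type libraries, and both number 2 libraries lay below both number 1 libraries. Number 1 held 2.66 times the Hnrnpf value of number 2 with LIF and 3.43 times after LIF removal, a difference of -1.57 ± 0.135 (SE; limma adjusted p = 0.0045). FPKM over a whole gene does not show whether the remaining transcripts could encode a protein. The 4 relatives of the family did not pass the test. Hnrnph1, the closest of them in expression level to wild type Hnrnpf, was at 498 and 559 FPKM with LIF in numbers 1 and 2 and at 558 and 550 after LIF removal (difference 0.07 ± 0.118, adjusted p = 0.825). Differences for Hnrnph2, Hnrnph3 and Grsf1 were 0.05, -0.12 and -0.10. Of 20 other hnRNP genes and 29 splicing regulators tested, 0 passed in either direction, with lowest adjusted p of 0.388 and 0.302.

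Across all tested genes, the limma test of the number, with medium as a block, called 201 genes (1.70%) at an adjusted p under 0.05. Of these, 113 (0.954%) were higher and 88 (0.743%) lower in number 2. All 201 differed the same way in both media, which is fixed by the fit and is not a finding. The only residual of the fit is the gap between the 2 within-medium differences, so a gene with opposite signs cannot reach that threshold. The median difference over all tested genes was 0.01 in each medium, with 5% to 95% ranges of -0.54 to 0.56 with LIF and -0.51 to 0.62 after LIF removal. Across genes, the differences in the 2 media, which share no library, had Pearson's r = 0.363 and Spearman's rho = 0.338 over 11849 genes. Genes are not independent replicates, so no p is given. A difference of at least 1 in both media was found for 51 genes (0.430%), 41 higher (0.346%) and 10 lower (0.0844%), and 50 of them were among the 201. For scale, 202 genes differed by at least 1 between the numbers with LIF and 211 after LIF removal, against 403 to 684 between a knockout library and the wild type library of its medium.

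The count of called genes rests on the moderation that limma applies, because 1 residual degree of freedom per gene is joined by 7.35 prior degrees of freedom. Without the intensity trend 5 genes passed, namely Acta1, Ankrd37, H19, Rhox5 and Rps19-ps3, and with each library scaled by its median ratio 34 passed, 76.5% of them higher, against 56.2% of the 201. A fit that adds the wild type libraries called 102 genes, all among the 201. Fits of those libraries without 1 knockout library called 43 (without number 1 with LIF), 33 (number 2 with LIF), 38 (number 1 after LIF removal) or 39 (number 2 after LIF removal), of which 31, 24, 27 and 28 were among the 201. Of the 12 largest rises named, 9 passed with median ratio scaling, 9 with the wild type libraries and 3 without the trend, and of the 12 largest falls 6, 10 and 1. The p-values measure the spread of the difference between 2 media, which may be technical. Relative sequencing depth of number 2 over number 1, read from the steps of low values, was 1.007 with LIF and 0.9276 after LIF removal.

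**Figure D1:**
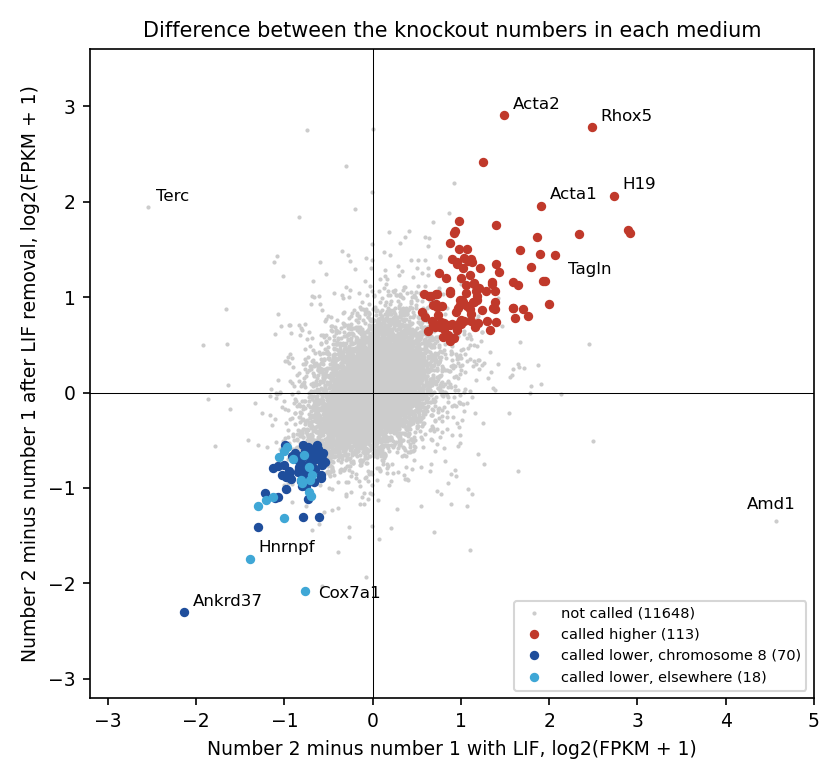
Difference of number 2 minus number 1 for each of 11849 tested genes, log2(FPKM + 1), with LIF on the horizontal axis and after LIF removal on the vertical axis; coloured points are the 113 genes called higher and the 88 called lower, of which 70 lie on chromosome 8. Called genes sit in the upper right and lower left of the plot, as the test requires. Amd1 and Terc, not called, lie far out in opposite directions in the 2 media.

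Among the 12 largest rises were Rhox5, Rhox9 and H19, which belong to the gene groups described above as variable between ESC lines. DNA methylation was not measured here, and a difference in silencing was not tested. Rhox5, a homeobox gene of the Rhox cluster (chromosome X, 37804842 to 37808876), was at 9.91 FPKM in number 1 and 60.0 in number 2 with LIF, and at 2.60 and 23.9 after LIF removal. Wild type lay between the numbers in both media, at 26.0 and 3.95. The difference for Rhox5 was 2.63 ± 0.147 (adjusted p = 0.000691), the lowest adjusted p of all tested genes. Its neighbours Rhox6 and Rhox9, the only other Rhox genes above the expression bound, were also higher in number 2, with differences of 1.39 (adjusted p = 0.0266) and 1.58 (adjusted p = 0.0235). Rhox9 was at 1.07 and 4.46 FPKM with LIF and at 0.14 and 2.87 after LIF removal. It averaged under 1 FPKM in number 1 and was tested only through number 2, so its rise is partly fixed by the expression bound. The cluster was singled out after its values were seen.

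Rhox5, Rhox6 and Rhox9 belong to a list of germline genes that promoter methylation silences, of which 6 of 23 tested members were called higher and 0 lower, beside 0.954% and 0.743% of all tested genes. The other 3 were Pnma5, Fkbp6 and Tex19.1. Of the 6, the Rhox genes are neighbours singled out after their values were seen, and Rhox9 was tested only through number 2. Fkbp6, a co-chaperone needed for piRNA function and meiosis, was at 3.39 and 7.81 FPKM in numbers 1 and 2 with LIF and at 1.14 and 3.92 after LIF removal (difference 1.10, adjusted p = 0.0311). Tex19.1, which restrains retrotransposons in germ cells, was at 96.9 and 169 with LIF and at 70.2 and 105 after LIF removal, and wild type at 24.6 and 19.5 lay below both numbers. Pnma5 lay in the same order, with wild type lowest in each medium. The list as a whole did not move one way, with median differences of 0.30 with LIF and -0.10 after LIF removal against 0.01 for all tested genes. Among 12 DNA methylation enzymes, 1 was called: Dnmt3l, the catalytically inactive cofactor of the de novo methyltransferases, at 69.6 and 152 FPKM with LIF and at 96.4 and 163 after LIF removal (difference 0.94, adjusted p = 0.0266). Wild type Dnmt3l, at 134 and 180, was nearer to number 2 in both media. Its position overlaps that of Aire on the opposite strand, and whether counting used strand is not given in the sources used here.

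H19, an imprinted long noncoding RNA expressed from the maternal chromosome (chromosome 7, 142575529 to 142578143), was at 7.55 FPKM in number 1 and 56.1 in number 2 with LIF, and at 27.4 and 118 after LIF removal. Wild type was below both numbers in each medium, at 3.97 and 20.4. The difference was 2.40 ± 0.171 (adjusted p = 0.00248). Igf2, its neighbour, a growth factor gene expressed from the paternal copy, was at 2.22 and 5.55 with LIF and at 12.2 and 17.2 after LIF removal, a difference of 0.74 that did not pass (adjusted p = 0.0873). Of 32 tested imprinted genes, 4 were called higher and 1 lower, beside 0.954% and 0.743% of all tested genes. Their medians were 0.29 with LIF and 0.10 after LIF removal, against 0.01 for all tested genes. The other 3 called higher were Magel2 (1.29, adjusted p = 0.0335), Nnat (0.76, adjusted p = 0.0326) and Snrpn (0.71, adjusted p = 0.0385). Nnat overlaps Blcap on the opposite strand. Phlda2, a maternally expressed gene that limits placental growth, was the 1 imprinted gene called lower, at 96.7 and 58.7 FPKM with LIF and at 60.8 and 31.9 after LIF removal (difference -0.81, adjusted p = 0.0295). Meg3 and Mest, which were far above wild type in both numbers, did not pass between the numbers: Meg3 was at 67.7 and 88.1 with LIF and at 116 and 124 after LIF removal, against 12.9 and 8.92 in wild type.

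**Figure D2:**
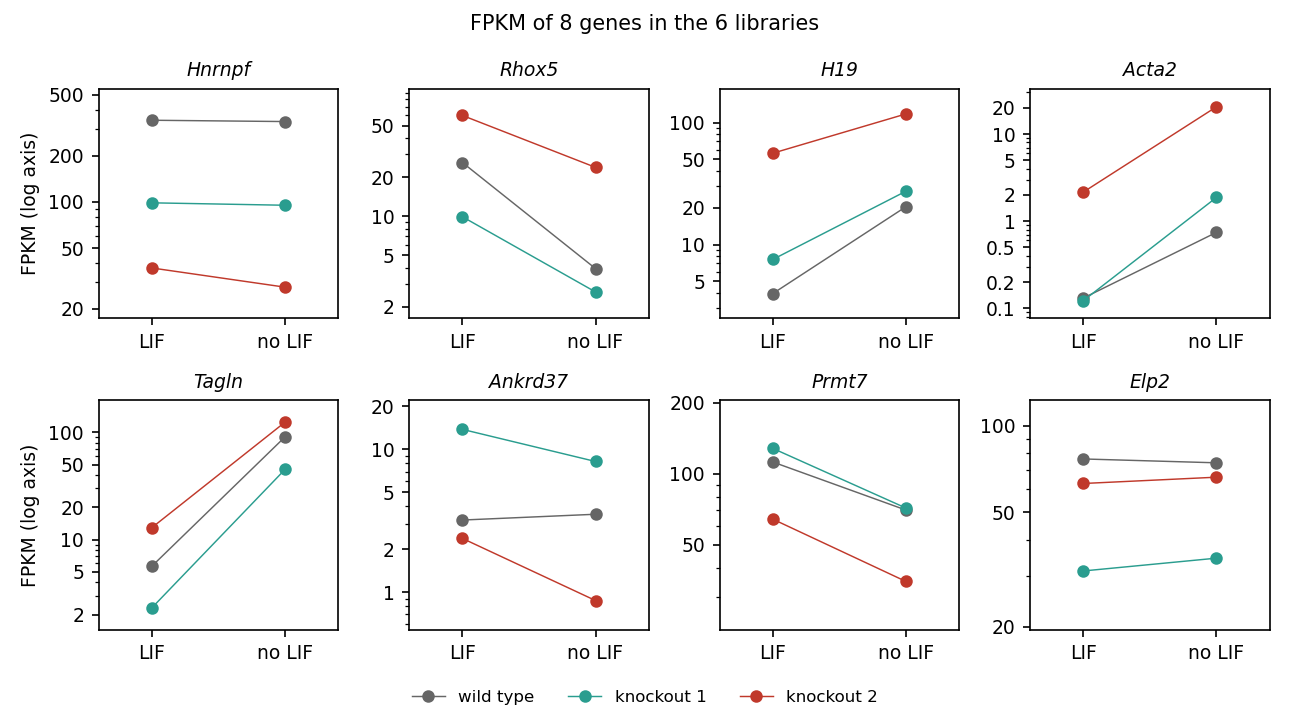
FPKM (log axis) of 8 genes in the 6 libraries, with LIF and 4 days after LIF removal; each point is 1 library and lines join wild type, knockout number 1 and knockout number 2 across media. Rhox5, H19, Acta2 and Tagln are higher in number 2, Hnrnpf, Ankrd37 and Prmt7 are lower, and for Elp2 number 1 stands below both wild type (76.5 and 74.2) and number 2 (62.9 and 66.1).

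Cytoskeletal and mesenchymal genes were the list with the largest share of called members. Of 22 tested members, 12 were called higher in number 2 and 0 lower, where 0.954% of all tested genes were called higher. A higher value in both media was found for 15, where 31.3% of all tested genes had one. Their median differences were 0.60 with LIF and 0.86 after LIF removal, against 0.01 in each medium for all tested genes. The members called higher were Acta2, Tagln, Thbs1, Anxa3, Anxa1, Myl9, Snai1, S100a6, Vim, Anxa2, Tpm1 and Cnn2. With median ratio scaling 4 of the 22 were called, without the intensity trend 0, and with the wild type libraries in the fit 6. Without 1 library, that fit called 3 (either number with LIF) or 2 (either number without LIF).

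Acta2, smooth muscle actin, showed the largest difference of the list. It was at 0.122 FPKM in number 1 and 2.16 in number 2 with LIF, and at 1.87 and 20.5 after LIF removal (difference 2.20 ± 0.307, adjusted p = 0.0257). Acta2 averaged under 1 FPKM in number 1 and was tested only through number 2, so its rise is partly fixed by the expression bound. Tagln, an actin-binding protein of smooth muscle and a marker of contractile cells, was at 2.32 and 13 with LIF and at 45.2 and 125 after LIF removal (difference 1.76 ± 0.17, adjusted p = 0.00956). Wild type Tagln lay between the numbers, at 5.67 and 90.8. Tagln overlaps Pcsk7 on the opposite strand by 108 bases. Thbs1, a secreted matrix glycoprotein, was at 0.377 and 3.77 with LIF and at 15.3 and 39.5 after LIF removal (difference 1.55, adjusted p = 0.015). Vim, the intermediate filament of mesenchymal cells, was at 27.4 and 45.6 with LIF and at 42.0 and 86.9 after LIF removal (difference 0.87, adjusted p = 0.0295). For each of these 4 genes, number 2 lay above number 1 of the same medium, as it must for a gene called higher. Snai1, a repressor of epithelial genes, was at 2.58 and 7.42 with LIF and at 4.03 and 8.16 after LIF removal (difference 1.05, adjusted p = 0.0326).

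Members that did not pass included Fn1 and Twist1. Fn1, the matrix protein fibronectin, was lower in number 2 in both media, at 202 and 152 FPKM with LIF and at 117 and 77.1 after LIF removal (difference -0.50, adjusted p = 0.0825). Twist1 differed by -0.09. Markers of fibroblasts, which can be carried along as feeder cells, were measured beside this list. Of 12, 3 were above the expression bound and 0 passed, and their summed FPKM with LIF was 10 in number 1 and 10.5 in number 2. After LIF removal it was 8.91 and 12.6, and 5.11 and 8.46 in wild type. Fap was listed at 0 in all 6 libraries and Lum in 5 of 6. Of 12 blood and endothelial markers, 3 were tested and 0 passed. Of 22 epithelial junction genes, Krt8 was the 1 called, and it was higher (difference 1.0, adjusted p = 0.0295). Over all tested genes 1.70% were called, and 1 call in a list of this size is not a result about the list. Krt8, a keratin of simple epithelia, was at 14.9 and 25.8 with LIF and at 51.2 and 123 after LIF removal.

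**Figure D3:**
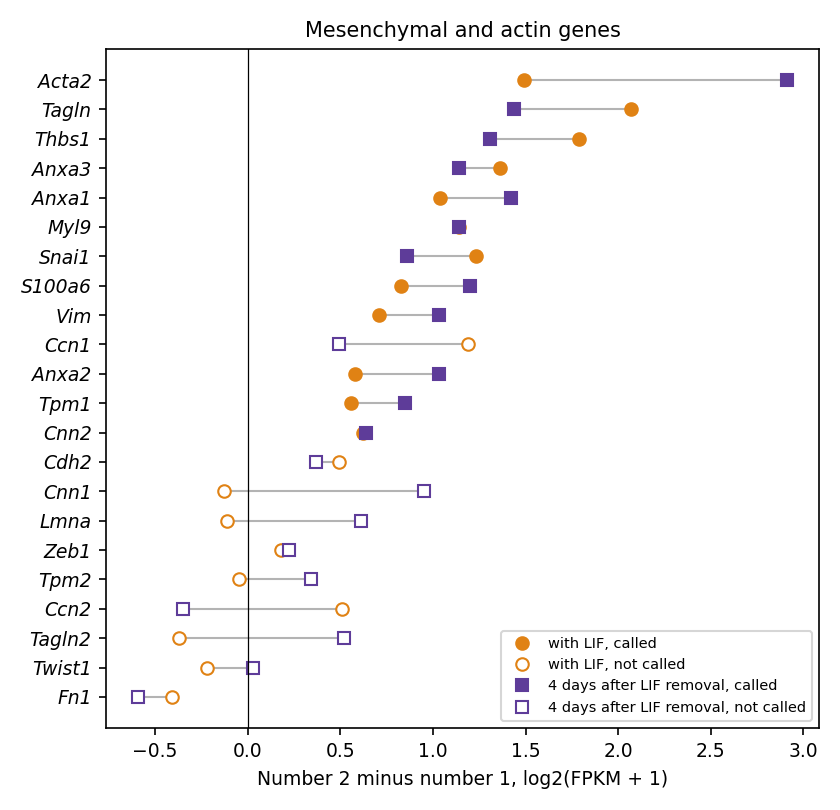
Difference of number 2 minus number 1, log2(FPKM + 1), for the 22 tested mesenchymal and actin genes; circles are libraries with LIF, squares those 4 days after LIF removal, and filled symbols mark the 12 called genes. The 12 called genes lie right of 0 in both media, as genes called higher must, and Fn1 lies left of 0 in both.

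Acta1, the actin of skeletal muscle, was not on that list and lies on chromosome 8 (123891769 to 123894751), where most called genes were lower. It was at 0.352 FPKM in number 1 and 4.08 in number 2 with LIF, and at 6.20 and 27.0 after LIF removal. Wild type was at 0.189 and 2.42, below both numbers. The difference was 1.93 ± 0.164 (adjusted p = 0.0045). The actin promoters are classic targets of serum response factor, which binds the CArG box, so the Acta1 promoter is shown with its CArG box in capitals. It is the RefSeq window from 250 bases before to 50 bases after the gene's start, at chr8:123894726-123895025 on the minus strand of GRCm38.p6, written 5′ to 3′.
Acta1: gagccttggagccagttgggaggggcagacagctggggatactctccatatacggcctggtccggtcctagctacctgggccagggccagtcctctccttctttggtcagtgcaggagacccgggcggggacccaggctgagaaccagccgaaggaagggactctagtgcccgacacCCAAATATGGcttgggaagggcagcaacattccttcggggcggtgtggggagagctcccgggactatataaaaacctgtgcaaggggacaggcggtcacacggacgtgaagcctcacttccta
The window holds 1 CArG box, searched on both strands, and 1.63% of 32851 RefSeq promoter windows of that length hold at least 1. A match describes the sequence and does not show binding.

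Other rises among the 12 largest were Klhl13, Zfp981 and 3 histone genes. Klhl13, an X-linked adaptor of a ubiquitin ligase, was at 47.7 FPKM in number 1 and 188 in number 2 with LIF and at 54.2 and 123 after LIF removal (difference 1.56, adjusted p = 0.015). Wild type lay between them at 121 and 83.7. Zfp981, a zinc finger gene of a multicopy family, was at 12.4 and 52.4 with LIF and at 12.8 and 25.3 after LIF removal (difference 1.46, adjusted p = 0.0295). H4c3, H2bc12 and H2bc18 rose by 2.00, 1.67 and 1.55, and H4c3 was listed at 0 in both libraries of number 1, so the size of its difference depends on the pseudocount. All 3 averaged under 1 FPKM in number 1 and were tested only through number 2. Their rises are therefore partly fixed by the expression bound. Counted after these values were seen, 33 replication-dependent histone genes were tested, and 15 had a 0 in at least 1 library. Of the 33, 6 were called higher and 0 lower, beside 0.954% and 0.743% of all tested genes. Apart from H3c1, the called histone genes averaged under 1 FPKM in number 1, so the expression bound helps fix their direction. Histone genes have near-identical copies and transcripts without poly(A) tails, so these FPKM values are uncertain.

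Pluripotency genes were measured to see whether the numbers differed in state. Of 8 core pluripotency factors, 0 passed, with a lowest adjusted p of 0.175. Pou5f1 (Oct4) was at 1002.2 FPKM in number 1 and 1052.6 in number 2 with LIF, and at 587 and 683 after LIF removal (difference 0.15, adjusted p = 0.607). Nanog was at 189 and 226 with LIF and at 185 and 146 after LIF removal, with opposite signs in the media. Of 22 naive pluripotency genes, 2 were called, both higher: Dnmt3l and Gbx2. Over all tested genes 1.70% were called and 0.954% were called higher. Gbx2, a homeobox gene that LIF signaling induces, was at 2.93 and 6.23 with LIF and at 2.73 and 6.71 after LIF removal (difference 0.96, adjusted p = 0.0385). The medians of the naive list were 0.13 with LIF and -0.39 after LIF removal, against 0.01 in each medium for all tested genes. Esrrb, an orphan nuclear receptor of the naive network, was at 145 and 104 with LIF and at 52.7 and 33.1 after LIF removal, which did not pass (difference -0.56, adjusted p = 0.0644).

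Genes of the formative and primed epiblast, the states ESCs enter on leaving naive pluripotency, were called higher for 4 of 21 members and lower for 0. Over all tested genes 0.954% were called higher and 0.743% lower. Median differences were 0.40 with LIF and 0.17 after LIF removal, against 0.01 in each medium for all tested genes. Pou3f1 (Oct6), a POU factor of the primed epiblast, was at 23.2 FPKM in number 1 and 62.1 in number 2 with LIF, and at 44.8 and 94.7 after LIF removal (difference 1.22 ± 0.133, adjusted p = 0.0145). Fgf5, the usual marker of primed epiblast, was at 2.29 and 5.58 with LIF and at 31.1 and 53.5 after LIF removal (difference 0.88, adjusted p = 0.0316). Wild type Fgf5 after LIF removal, at 52.7, lay beside number 2, whereas with LIF, at 1.64, it lay nearer to number 1. Wnt8a, a Wnt ligand (0.99, adjusted p = 0.0295), and Sox3, a neural and epiblast factor (0.83, adjusted p = 0.0493), were the other 2 called. Otx2 and Dnmt3b, further members of the list, had differences of -0.10 and 0.25 that did not pass.

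Markers of other lineages gave single calls. Among primitive streak genes 1 of 7 was called higher, Fst, and T (brachyury) did not pass, at 4.45 and 13.3 FPKM after LIF removal (difference 0.95, adjusted p = 0.103). Sparc was the 1 of 7 primitive endoderm genes called, and it was higher (0.78, adjusted p = 0.0295). Trophoblast genes gave 1 call of 10, Krt8, and early neural genes 1 of 9, Nnat, both higher. Two-cell-like genes gave 0 of 4 and Hox genes 0 of 2. Medians of several of these lists lay above the 0.01 of all tested genes without calls to match. They were 0.56 with LIF and 0.70 after LIF removal for primitive endoderm (5 of 7 higher in both media), 0.41 and 0.58 for trophoblast (7 of 10) and 0.68 and 0.78 for two-cell-like genes (4 of 4). A member low in number 1 was tested only if number 2 was high enough, so the expression bound helps fix these values. Zscan4c, a two-cell-like gene, was at 0.246 and 0.745 FPKM in number 1 and at 1.5 and 2.86 in number 2. Zscan4a, Zscan4d and, among trophoblast genes, Cdx2 also averaged under 1 FPKM in number 1. Gata3, another trophoblast gene, averaged close to that bound in number 1, at 0.286 and 1.71 FPKM, against 0.735 and 3.06 in number 2. Signaling and stress lists were similar: 1 of 18 LIF-STAT3 genes (Gbx2) and 1 of 23 p53 targets, Perp, a desmosomal death effector (0.99, adjusted p = 0.0196), were called higher. Interferon-stimulated genes gave 0 calls of 24, with medians of 0.36 and 0.25 and 15 members higher in both media, Polycomb subunits 0 of 26, Y-linked genes 0 of 5 and X inactivation genes with X partners of Y genes 0 of 7. These shares stand beside 1.70% called over all tested genes, and the counts higher in both media beside 31.3% of all tested genes.

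The falls were concentrated on 1 chromosome. Chromosome 8 held 659 of the tested genes (5.57%) and 70 of the 88 genes called lower (79.5%), beside 3 called higher. Its median difference was -0.43 with LIF and -0.36 after LIF removal, whereas the 18 other autosomes and X had medians between -0.05 and 0.08, 18 lower calls in all and at most 4 each. Chromosome Y, with 5 tested genes and 0 calls, had medians of 0.25 and -0.21. In 227 windows of 10 Mb with at least 15 tested genes, 9 had medians at or below -0.2 in both media, and all 9 lay on chromosome 8, with medians from -0.57 to -0.32. Against 70 lower calls, the chromosome had 45 with the wild type libraries in the fit, 6 with median ratio scaling and 1 without the intensity trend, and fits of the 6 libraries without 1 of them gave 12 (number 1 with LIF), 4 (number 2 with LIF), 8 (number 1 without LIF) or 5 (number 2 without LIF). The chromosome median did not depend on the test, and stayed between -0.430 and -0.282 over the pseudocounts, scalings and stricter filter tried, and was -0.263 without a filter.

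The shift was not spread over the whole of chromosome 8. Below 30 Mb, a bound drawn after the values were seen, 111 genes were tested, 0 were called lower and the medians were -0.02 with LIF and 0.04 after LIF removal. From 30 Mb on, 548 genes were tested, 456 of them (83.2%) were lower in number 2 in both media against 29.5% of all tested genes, and the medians were -0.48 and -0.41. Against wild type, the medians of this longer stretch were 0.14 with LIF and -0.00 after LIF removal in number 1, and -0.35 and -0.41 in number 2. For the 424 genes there with a mean of at least 5 FPKM, number 2 had a median of 75.5% of the wild type value with LIF and 71.2% after LIF removal, and number 1 had 109% and 98.9%. Below 30 Mb both numbers were under wild type, with medians of -0.32 and -0.38 in number 1 and -0.26 and -0.29 in number 2. Of the 70 genes called lower on the chromosome, wild type was nearer to number 1 in both media for 51 (72.9%) and nearer to number 2 for 7 (10%), against 31.1% and 23.8% of all tested genes. DNA copy number was not measured here.

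**Figure D4:**
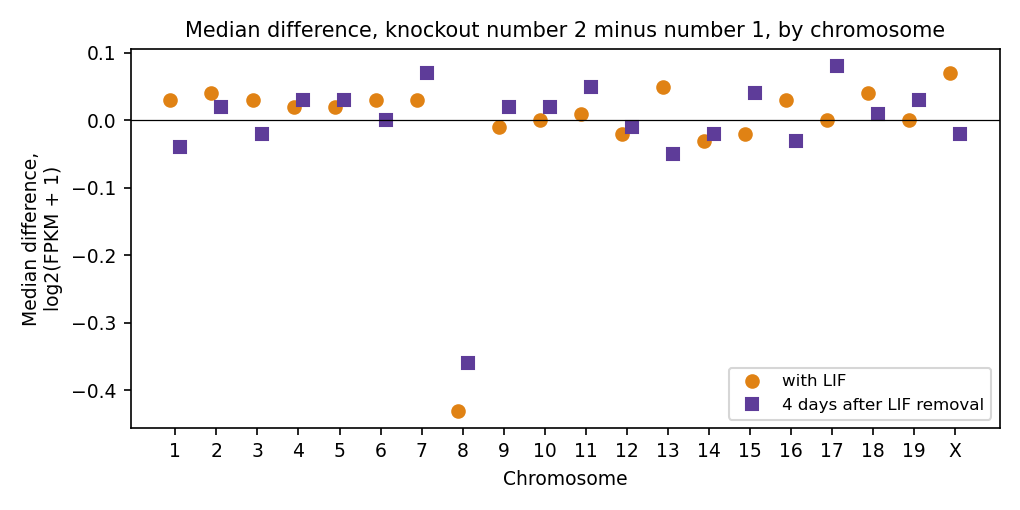
Median difference of number 2 minus number 1, log2(FPKM + 1), over the tested genes of each autosome and X, with LIF (circles) and 4 days after LIF removal (squares). Chromosome 8 stands at -0.43 and -0.36, and the others drawn lie between -0.05 and 0.08; Y, with 5 tested genes, is not drawn.

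The genes called lower on chromosome 8 with the largest differences have different known roles. Prmt7, an arginine methyltransferase (106210936 to 106252794), was at 128 FPKM in number 1 and 64.2 in number 2 with LIF and at 71.6 and 35.0 after LIF removal (difference -0.999 ± 0.119, adjusted p = 0.0184). Wild type Prmt7, at 112 and 70.2, lay beside number 1. Acsl1, which activates long-chain fatty acids, was at 17.0 and 6.73 with LIF and at 10.4 and 4.49 after LIF removal (difference -1.14, adjusted p = 0.0196), and wild type was at 17.7 and 10.7. Triml1 was at 34.0 and 15.2 with LIF and at 13.2 and 5.63 after LIF removal (difference -1.11, adjusted p = 0.0185). For these 3 genes number 2 was the lowest of the 3 libraries in each medium. Syce2, a synaptonemal complex protein, Adgre5, an adhesion receptor, and Cers1, a ceramide synthase, fell by 1.05, 1.08 and 1.35. Syce2 overlaps Gcdh, Adgre5 overlaps Ddx39 and Cers1 overlaps Gdf1, so reads may be shared between them.

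Several of the single calls in metabolic lists were genes of this chromosome. Msmo1 was the 1 of 24 cholesterol synthesis genes called, Slc7a5, an amino acid transporter, the 1 of 24 amino acid stress genes, and Cdt1, a replication licensing factor, the 1 of 37 cell cycle genes, and all 3 were lower in number 2. Over all tested genes 0.743% were called lower, and 1 call in a list of this size is not a result about the list. Slc7a5 was at 369 and 229 FPKM with LIF and at 321 and 209 after LIF removal (difference -0.65, adjusted p = 0.0367). Among the tested chromosome 8 genes with the highest mean FPKM, Mt2, Cox4i1, Rbpms and Eif4ebp1 were lower in number 2 in both media and did not pass, with differences from -0.85 to -0.23. The 3 genes called higher on the chromosome were Acta1, Efnb2 and Gm5914, named here because they go against the rest. Gm5914 was listed at 0 in both libraries of number 1 and was tested only through number 2, so it could only be higher.

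Mt1, a metallothionein that binds zinc and copper, is also among the most highly expressed genes of the chromosome, and it passed. It was at 2489.7 FPKM in number 1 and 1633.7 in number 2 with LIF, and at 2575.6 and 1040.4 after LIF removal (difference -0.96 ± 0.169, adjusted p = 0.0368). Wild type Mt1 lay between the numbers, at 2120.9 and 1356.6. The gap was wider after LIF removal (-1.31) than with LIF (-0.61), and the change of the gap was not tested. Of 8 genes of metal handling, Mt1 was the 1 called, where 1.70% of all tested genes were. Metallothionein promoters carry metal response elements, the sites of the zinc sensor MTF1, and the Mt1 promoter is shown with these elements in capitals, the RefSeq window at chr8:94178839-94179138, plus strand, GRCm38.p6.
Mt1: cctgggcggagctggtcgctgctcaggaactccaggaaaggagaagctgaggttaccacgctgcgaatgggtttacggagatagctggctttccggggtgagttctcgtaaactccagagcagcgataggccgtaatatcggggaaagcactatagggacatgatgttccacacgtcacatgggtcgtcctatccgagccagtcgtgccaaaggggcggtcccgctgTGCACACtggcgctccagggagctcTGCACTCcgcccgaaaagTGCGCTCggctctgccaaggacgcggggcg
Searched on both strands as TGCGCNC or TGCACNC, the element occurs 3 times in this window, 25.7% of all promoter windows hold at least 1 and 1.97% hold at least as many.

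Ankrd37, a small ankyrin repeat protein whose gene is a known target of the hypoxia-inducible factors, had the largest fall (chromosome 8, 45996902 to 46005707). It was at 13.8 FPKM in number 1 and 2.38 in number 2 with LIF, and at 8.23 and 0.872 after LIF removal. Wild type was between the numbers in both media, at 3.20 and 3.51. The difference was -2.22 ± 0.172 (adjusted p = 0.00328), against chromosome 8 medians of -0.43 with LIF and -0.36 after LIF removal. Of 27 tested genes of glycolysis and hypoxia, 0 were called higher and 2 lower, beside 0.954% and 0.743% of all tested genes. Their medians were -0.28 with LIF and 0.09 after LIF removal, against 0.01 in each medium for all tested genes. The other called member was Pfkp, a phosphofructokinase on chromosome 13, at 127 and 78.9 with LIF and at 53.1 and 28.7 after LIF removal (difference -0.78, adjusted p = 0.0307). Pfkp overlaps Pitrm1, and Ankrd37 overlaps Ufsp2, on the opposite strand. The hypoxia-inducible factors bind a core of ACGTG, and the Ankrd37 promoter is shown with that core in capitals, the RefSeq window at chr8:45999801-46000100, minus strand, GRCm38.p6. It lies inside the GENCODE coordinates given above, because the RefSeq start is downstream of the 5′ end of the GENCODE gene.
Ankrd37: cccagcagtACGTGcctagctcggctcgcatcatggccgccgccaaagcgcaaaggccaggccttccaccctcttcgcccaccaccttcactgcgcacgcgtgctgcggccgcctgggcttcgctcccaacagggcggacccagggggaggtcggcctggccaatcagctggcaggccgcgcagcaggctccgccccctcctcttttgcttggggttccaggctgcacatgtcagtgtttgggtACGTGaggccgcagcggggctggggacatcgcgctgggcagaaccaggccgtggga
The core was searched on both strands and occurs 2 times in the window, 19.6% of all promoter windows hold at least 1 and 8.21% hold at least as many.

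Falls on other chromosomes were few. Besides Hnrnpf and Pfkp they included Cox7a1, a muscle form of a cytochrome oxidase subunit, at 12.9 and 7.20 FPKM with LIF and at 13.5 and 2.41 after LIF removal (difference -1.42, adjusted p = 0.0469). Efhd1, a calcium-binding mitochondrial protein, was at 7.59 and 2.93 with LIF and at 3.29 and 1.01 after LIF removal (difference -1.11, adjusted p = 0.0311), and wild type was above both numbers. Slfn9 fell by 1.16 and Gpha2 by 1.24, with Gpha2 under 3 FPKM in every library. Gpha2 averaged under 1 FPKM in number 2 and was tested only through number 1, so its fall is partly fixed by the expression bound. Erdr1 fell by 1.17 (adjusted p = 0.0185), and its multicopy locus makes that value uncertain.

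A short run of neighbouring genes on chromosome 18 was higher in number 2. Of the 227 windows, the 1 with medians at or above 0.2 in both media was chromosome 18 from 20 to 30 Mb, where 9 of 23 tested genes (39.1%) were called higher and 0 lower, against 0.954% called higher over all tested genes. The remaining 265 tested genes of the chromosome held 2 higher calls, Colec12 and Wnt8a. The 9 called genes lay among 11 consecutive tested genes from Mapre2 to Elp2 (23752333 to 24639507), a run cut from the first to the last called gene. All 11 were higher in number 2 in both media, with medians of 1.02 with LIF and 0.92 after LIF removal. For the 9 called genes that direction is fixed by the calls. Zscan30, not called, averaged under 1 FPKM in number 1 and was tested only through number 2. The expression bound therefore helps fix its direction. Over the whole window 16 of 23 genes were higher in both media, with medians of 0.34 and 0.45. Against 9 calls, the window had 5 with median ratio scaling, 6 with the wild type libraries and 0 without the intensity trend, and fits of the 6 libraries without 1 of them gave 3 (number 1 with LIF), 2 (number 2 with LIF), 2 (number 1 without LIF) or 1 (number 2 without LIF).

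On this run, number 1 was the one that stood apart from wild type. The median over the 11 genes was 50% of the wild type value in number 1 with LIF and 53.7% after LIF removal, and 115% and 116% in number 2. These values belong to a run bounded by its own calls. Over all 23 tested genes of the window, median differences from wild type were -0.56 and -0.44 in number 1 and 0.09 and -0.07 in number 2. Wild type was nearer to number 2 in both media for 8 of the 9 called genes. Elp2, a subunit of the Elongator complex that modifies transfer RNA, was at 31.2 FPKM in number 1 and 62.9 in number 2 with LIF and at 34.6 and 66.1 after LIF removal, and wild type was at 76.5 and 74.2 (difference 0.95 ± 0.122, adjusted p = 0.0185). Ino80c, a subunit of the INO80 chromatin remodeler, was at 4.49 and 13.8 with LIF and at 8.06 and 20.7 after LIF removal, and wild type was at 10.2 and 15.8 (difference 1.35 ± 0.148, adjusted p = 0.0145). Galnt1, which starts O-glycosylation, was at 8.10 and 19.6 with LIF and at 12.4 and 25.3 after LIF removal (difference 1.08, adjusted p = 0.0192). In each of these 3 genes number 1 was the lowest library of its medium. Slc39a6, a zinc transporter that overlaps Elp2, and Zscan30 were the 2 of the 11 that did not pass.

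**Figure D5:**
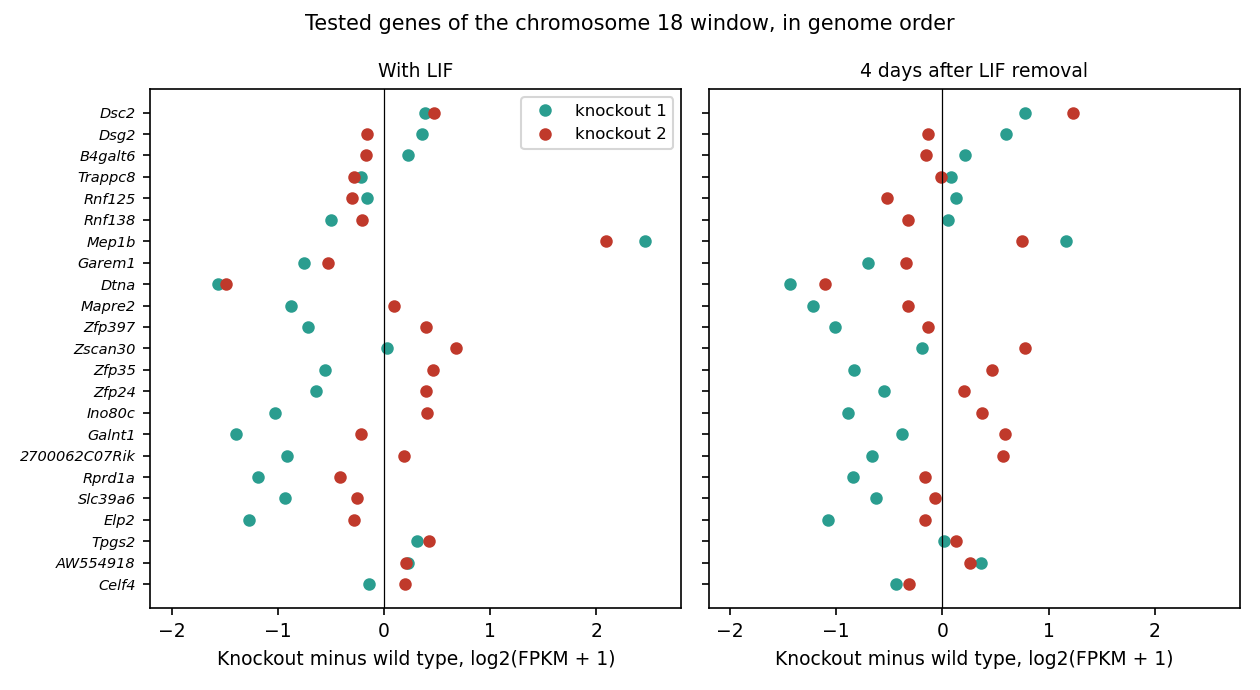
Knockout minus wild type, log2(FPKM + 1), for the 23 tested genes of chromosome 18 from 20 to 30 Mb in genome order, with LIF (left) and 4 days after LIF removal (right); each point is 1 knockout library against the wild type library of its medium. From Mapre2 to Elp2, the first and last called genes, number 1 lies left of number 2 in both media.

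Wild type levels were set beside those of the 2 numbers for the called genes. For the 113 genes called higher, wild type was nearer to number 1 in both media for 58 (51.3%) and nearer to number 2 for 24 (21.2%). For 31 the nearer number differed between the media. For the 88 called lower the counts were 60 (68.2%) and 13 (14.8%), with 15 mixed. Most of the 60 lay on chromosome 8, with 51 of its 70 lower calls. For the 18 lower calls elsewhere the counts were 9 and 6, with 3 mixed. All tested genes gave 31.1% and 23.8%. Each comparison with wild type uses 1 library per medium, so these are positions of single libraries and no test was made.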

How the data were processed

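RNA-seq was measured in 6 mouse ESC libraries. The authors deposited FPKM per gene symbol, made with STAR and Cufflinks on build mm10, per the submitters' processing notes. Their versions, parameters and annotation were not stated there. FPKM totals lay between 456155 and 556318. Read counts were not used, so depth in reads is unknown and no counting interval is given.

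Values were analysed as log2(FPKM + 1) for genes averaging at least 1 FPKM across the 4 knockout libraries. limma 3.58.1 in R 4.3.3 fitted medium and knockout number, with empirical Bayes moderation and an intensity trend, in a two-sided test with Benjamini-Hochberg adjustment over 11849 genes and a threshold of 0.05. The pairing by medium comes from the design, and the wild type libraries carry no number. Positions were taken from GENCODE M21 and promoter windows from RefSeq GRCm38.p6. The fit was tested on simulated data.

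The genes, the 31 lists (638 entries, 621 found, 484 tested) and the tests were chosen with earlier results of these data known. Genes named by rule were Hnrnpf and its relatives, the 12 largest rises and falls called, without unnamed, ribosomal, mitochondrial and small RNA symbols, the 4 lowest p-values of each list described, the 6 highest genes of a shifted chromosome, and genes with large opposite differences. The 13 mitochondrially encoded mRNAs of the lists were not matched. Others were named after their values were seen. A gene that this rule selects is not reported here. Lists were described by counts and medians, with no set test. Alternatives covered the pseudocount, the filter, the scaling, the moderation, the block, the wild type libraries, each library left out, and chromosome 8.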

Additional observations from a re-analysis of the deposited data

Results flagged for a closer look

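The 3 genes shown here, each with a mean of at least 5 FPKM, differed by at least 1 in opposite directions in the 2 media, and the difference between media was not tested. Amd1, an enzyme of polyamine synthesis with close copies in the genome, was at 0.0273 FPKM in number 1 and 23.5 in number 2 with LIF, a difference of 4.57, and at 28.0 and 10.4 after LIF removal, a difference of -1.35. Wild type Amd1 was at 8.79 and 39.1, so the low value was that of 1 library, number 1 with LIF. Terc, the RNA component of telomerase, was at 8.66 and 0.652 with LIF, a difference of -2.55, and at 2.41 and 12.1 after LIF removal, a difference of 1.94. Zp3, a zona pellucida protein of the oocyte, was at 4.70 and 11 with LIF, a difference of 1.08, and at 3.45 and 1.21 after LIF removal, a difference of -1.01.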

How the results depend on the processing

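Against 201 called genes, the test called 0 with no filter on low values (2003 at an unadjusted p under 0.05), 5 without an intensity trend, 34 with median ratio scaling, 102 with all 6 libraries, 89 without the genes of chromosome 8 and 64 with chromosome medians subtracted, 61 of the 64 being among the 201. In the 6-library fit, leaving out 1 knockout library gave 33 to 43 calls, of which 24 to 31 were among the 201, and the cause was not tested. With no replicate block, that is without the pairing by medium, 0 genes passed (355 at an unadjusted p under 0.05, against 1845 with the block). Both pseudocounts, a mean of at least 5 FPKM and quantile normalization gave 199 to 268 calls. Against 51 genes with a difference of at least 1 in both media, there were 124 with a pseudocount of 0.1, 8 with a pseudocount of 5 and 28 with a mean of at least 5 FPKM, since the pseudocount sets the size of a difference. The chromosome 8 median moved from -0.381 to -0.282 with a pseudocount of 5. Terc, at -0.30 over both media, turned to 1.98 without number 2 with LIF and passed at -2.58 without number 2 after LIF removal. The 46 named genes that were called kept their direction in each setting that tested them. Library depth in reads is unknown, so values of genes near 1 FPKM are the least certain.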
